A study of Homo sapiens with 4 samples.

Results

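The translation factor genes were taken as the protein-coding genes whose symbol begins with EIF or EEF and a digit, together with ETF1, GSPT1 and GSPT2, in the peak lists of an NSUN2 RIP-seq experiment. They numbered 65 of the 12396 protein-coding genes that had a symbol and a peak. In RIP-seq an antibody isolates a protein with its bound RNA, which is sequenced beside RNA of the whole lysate, the input. The protein here was NSUN2, an RNA methyltransferase. Wild-type PANC-1 cells, an established line from a human pancreatic ductal adenocarcinoma, were given 30 mM sodium lactate or ddH2O, the vehicle, for 24 h. Each condition had 1 immunoprecipitation (IP) library and 1 input library without antibody, 4 libraries in all. With 1 library per group there is no replicate check on any difference between lactate and ddH2O, and no p-value is given for one. The intervals below are at the 95% level and cover counting error only, and reads were counted without molecular identifiers.

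Translation starts when eIF4E, eIF4G and eIF4A bind the capped end of an mRNA and recruit the small ribosomal subunit, which carries eIF1, eIF3, eIF5 and the initiator tRNA held by eIF2. The complex scans to the start codon, eIF5B joins the large subunit, and eIF2B recharges eIF2 with GTP. Phosphorylation of the alpha subunit of eIF2 by a family of stress kinases slows this step, and the eIF4E-binding proteins block eIF4E when mTOR is inactive. Elongation is carried by eEF1A, its exchange factors and eEF2, and termination by eRF1 (ETF1) and eRF3 (GSPT1 and GSPT2). Several of these genes, mostly of the elongation factors, belong to the TOP mRNAs, whose transcripts begin with a C followed by an unbroken stretch of pyrimidines and whose translation follows mTOR.

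The starts of the transcripts are shown because the TOP genes are compared with the other translation factor genes below. Each line holds 30 bases of the RefSeq annotation of GRCh38.p14, 15 before the transcript start and 15 from it. Capitals mark an unbroken run of at least 4 C or T that begins with C at the first or the second base of the transcript. The list of TOP genes held 10 genes, EEF1A1, EEF1A2, EEF1B2, EEF1D, EEF1G, EEF2, EIF3E, EIF3F, EIF3H and EIF4B. Starts are shown for EEF1A1, EEF1G, EEF2, EIF3F and EIF4B of these, and for EIF2D, EIF1 and EIF5B outside the list. A start was listed for 6 of the 10 TOP genes, and none for EEF1A2, EEF1D, EIF3E and EIF3H, so their starts were not read. EEF1B2, which had no peak, is not shown and had starts with a run of 16 and of 0.
EEF1A1 (chr6:73521018-73521047, minus strand): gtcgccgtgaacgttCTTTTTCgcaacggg
EEF1G (chr11:62573877-62573906, minus strand): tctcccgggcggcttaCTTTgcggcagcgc
EEF2 (chr19:3985449-3985478, minus strand): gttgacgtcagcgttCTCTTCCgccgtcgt
EIF3F (chr11:7987322-7987351, plus strand): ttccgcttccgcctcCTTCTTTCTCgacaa
EIF4B (chr12:53006441-53006470, plus strand): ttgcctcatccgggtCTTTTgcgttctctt
EIF2D (chr1:206612451-206612480, minus strand): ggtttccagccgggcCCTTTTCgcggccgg
EIF1 (chr17:41688870-41688899, plus strand): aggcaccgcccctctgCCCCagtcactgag
EIF5B (chr2:99337374-99337403, plus strand): gcgcactgagaactcacaccatatgtgtcc
A run of this kind, read on the transcript strand, was present at 17 of the 62 starts listed for 51 of the translation factor genes and at 10.3% of all 35116 starts in the table. The run of EIF3F had 10 pyrimidines and those of EEF1A1, EEF2 and EIF2D had 7, while EIF5B had none of this length. A match is a description of the annotated start and not of the start used in these cells.

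All 65 genes had a called peak in the ddH2O list, and 49 of them (75.4%) also had one in the lactate list. No gene had a peak in the lactate list alone. With only peaks that the peak caller gave a q-value below 0.05, 55 genes had a ddH2O peak and 35 a lactate peak. Of all protein-coding genes with a peak, 77.2% were in the list for lactate and 95.7% in that for ddH2O. RefSeq holds 73 symbols of this form, and no peak was found here for 8 of them, namely EEF1B2, EEF1E1, EIF1AY, EIF3C, EIF4A2, EIF4E1B, EIF4E3 and EIF5A. Several of these, such as EIF3C and EIF5A, have near-identical copies elsewhere in the genome, and whether reads were lost between copies was not tested. In total the genes held 197 lactate peaks and 353 ddH2O peaks. The whole lists held 48104 and 95785 peaks, so more peaks in ddH2O were not particular to these genes.

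The authors merged the peak lists of both IP libraries, and 419 of the 116484 merged peaks overlapped a called peak of these genes by at least 1 base. Of these 419, 225 came from a ddH2O peak alone, 66 from a lactate peak alone and 128 from both. The same division over all merged peaks was not counted, and the whole lists also held more ddH2O peaks. The reads of each IP library in a window of 2000 bases around the summit were recovered from the deposited densities. The windows of the translation factor genes held 25486 lactate IP reads and 63422 ddH2O IP reads. These were 1.31% and 1.79% of the reads in all windows other than those of MT-RNR2 and MALAT1. Windows that overlap count a read more than once. Reads in a window were compared as the log2 ratio of the authors' normalized densities, lactate IP over ddH2O IP, and windows with at least 20 reads in both libraries together were compared. There were 214 such windows in 51 genes. The other 14 genes had between 2 and 19 reads in their most-read window and were not compared (EEF1AKMT2, EEF1AKMT3, EEF1AKMT4-ECE2, EEF1D, EIF1AX, EIF2A, EIF2AK3, EIF2B1, EIF2S1, EIF3CL, EIF3E, EIF3G, EIF3L and EIF3M). Of the 214 windows, 160 shared reads with a neighbouring merged peak.

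Over the whole experiment the IP libraries held about equal sums of reads over all windows, 9756052 for lactate and 9553836 for ddH2O, with reads in overlapping windows counted more than once. Without MT-RNR2 and MALAT1 they held 1945000 and 3536821, 1.82 times as many in ddH2O. Scaling by these last sums, called the library sums below, in place of the authors' normalization moved the median log2 ratio of all windows by 0.32. Single windows moved by more, and the shift went with their reads. Translation factor windows under 50 reads moved up by 0.46 to 0.79, and those with 1000 reads or more moved by -0.74 to -0.29. Of the windows lower by the normalized densities, 33 of 53 were also lower by the library sums, 7 of 7 higher ones were also higher, and 0 turned to the opposite call. The ratio compares IP with IP, and a difference in the amount of an RNA and a difference in its binding cannot be told apart by it. The ductal keratins KRT7, KRT8, KRT18 and KRT19 had peaks in both lists (4 of 4 genes), while the acinar (3 genes) and islet (2 genes) markers had none. The leukocyte marker PTPRC had a peak under 20 reads in the ddH2O list, and 1 of 3 fibroblast markers had a peak in the lactate list.

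Peaks of the translation factor genes lay in exons more often than those of protein-coding genes as a whole. By the authors' region label, exons held 38.6% of their lactate peaks (interval 32.1 to 45.5, 76 of 197 peaks) and 39.9% of their ddH2O peaks (35.0 to 45.1, 141 of 353). Over all protein-coding genes the exon shares were 18.8% and 21.0%. Introns held 42.6% (35.9 to 49.6) and 41.1% (36.1 to 46.3) of the translation factor peaks, against 61.5% and 61.2%. The 3' UTR shares of 16.2% (11.7 to 22.0) and 17.6% (14.0 to 21.9) stood beside 18.1% and 15.8%, within the counting error of the translation factor peaks. The 5' UTR held 5 peaks in each list. The exon and intron shares of the lactate and ddH2O lists lay within each other's intervals. Peaks of 1 gene are not independent of each other, so these intervals are too narrow.

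**Figure D1:**
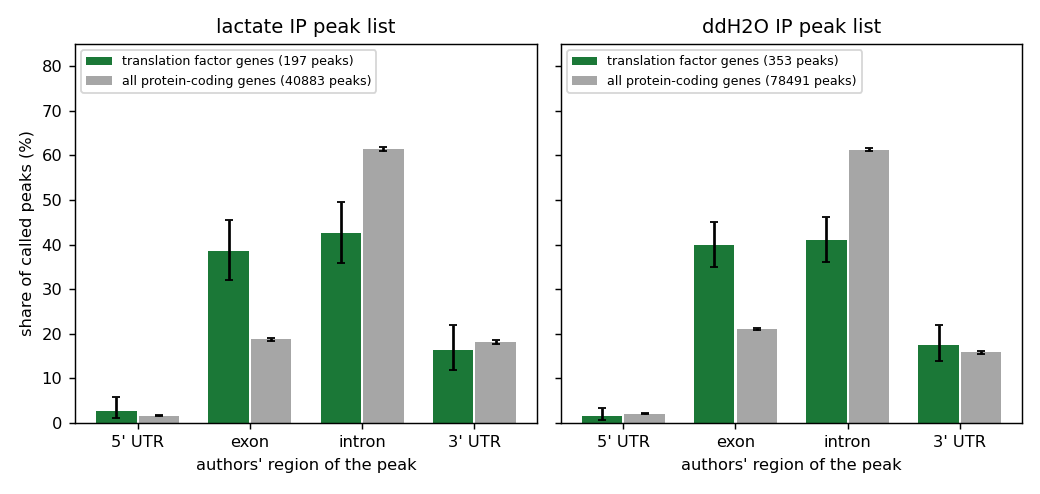
Share of called peaks (%) by the authors' region label, in the lactate IP list (left) and the ddH2O IP list (right). Green bars are the translation factor genes, grey bars all protein-coding genes, and error bars are 95% Wilson intervals. The green exon bars stand at 38.6% and 39.9% and the grey ones at 18.8% and 21.0%.

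The fold enrichment over input that the authors' peak caller gave had a median of 3.24 (3.07 to 3.56) for the lactate peaks of the translation factor genes and 3.27 (3.03 to 3.64) for their ddH2O peaks, beside 3.24 and 3.03 for all protein-coding peaks. A q-value below 0.05 was given to 51.8% of their lactate peaks and 62.3% of their ddH2O peaks, against 44.6% and 50.9% of all protein-coding peaks. The highest enrichment in the ddH2O list was 31.6, at an exon of GSPT1 (eRF3a), followed by 30.0 at an exon of EIF4G2. In the lactate list it was 17.7, at an exon of EIF2AK4 that also had 23.5 in the ddH2O list. The window of this EIF2AK4 peak nonetheless held 0 reads of the lactate IP and 1 of the ddH2O IP. Of the 419 windows 43 held 3 reads or fewer, and so did 7 of the 149 windows with an enrichment of at least 4. Over all protein-coding windows these were 12377 of 95330 and 701 of 33090. The cause of the mismatch was not tested.

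Where a merged peak held a called peak of each list, the 2 enrichments over input can be set side by side. There were 126 such merged peaks in 44 translation factor genes, and the other 2 of the 128 from both lists, at EIF4B and EIF4EBP3, had a peak that carried another gene's name. The enrichment was lower in lactate in 86 of them (68.3%), and the median log2 ratio of the enrichments was -0.39 (-0.53 to -0.18). Among all protein-coding merged peaks it was lower in 59.4% of 23178, with a median of -0.19. In exons 52 of 68 were lower in lactate (76.5%) with a median of -0.47, beside 66.7% and -0.38 for all protein-coding exons. In introns 18 of 33 were lower (54.5%), beside 53.5%. A 2-fold lower enrichment in lactate was seen at 27 merged peaks (21.4%, beside 17.4%) and a 2-fold higher one at 5 (3.97%, beside 7.57%). No minimum of reads was set for these pairs. They include the EIF2AK4 peak with 0 and 1 reads and a GSPT1 exon with 2 and 3 reads (4.42 in lactate and 12.1 in ddH2O). Whether the reads of MT-RNR2 and MALAT1 in each IP library affected the enrichments was not tested. The lowest ratios were at a window of EIF4G3 with the 3' UTR label, which lies 312.2 kb from the start of the 370.6 kb gene, with 2.80 in lactate and 27.5 in ddH2O, and at an exon of EIF4G2, with 3.78 and 30.0. The highest was at the 3' UTR of GSPT1, with 8.16 in lactate and 2.67 in ddH2O, while an exon of the same gene had 9.66 and 31.6. A log2 ratio of the IP densities above 0 could go with a lower enrichment in lactate. The 3' UTR of EIF4EBP2 (IP ratio 0.59) had enrichments of 2.92 in lactate and 5.90 in ddH2O. EEF1G (0.59) had 1.80 and 2.93, and the 3' UTR of EEF2 (0.50) 2.27 and 3.58. Both measures were higher at the GSPT1 3' UTR (0.48). Windows of either kind were not counted.

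**Figure D2:**
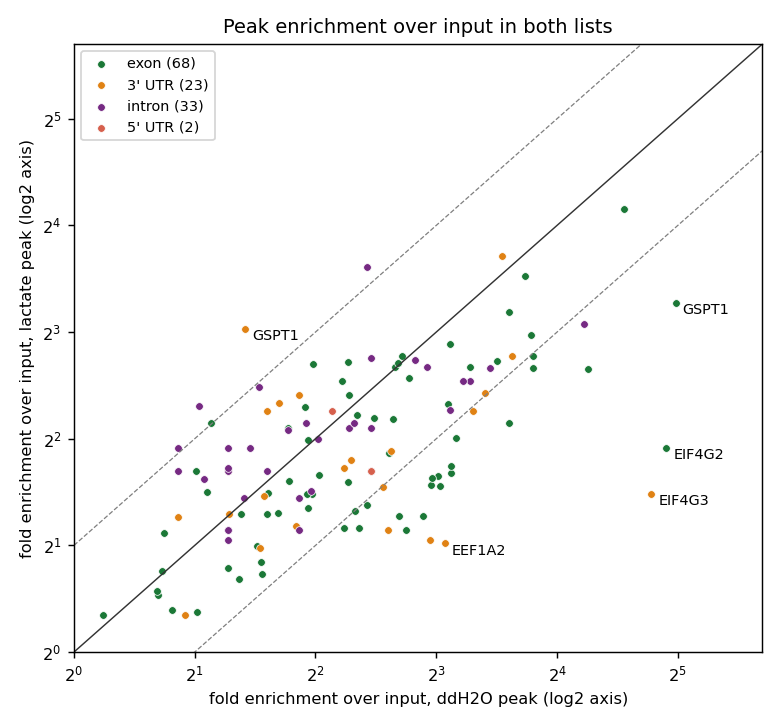
Fold enrichment over input in the ddH2O list (x, log2 axis) and the lactate list (y, log2 axis) at the 126 merged peaks of translation factor genes that held a peak of each list. Colours give the region, the solid line marks equal enrichment and dashed lines a 2-fold difference; 86 of the points lie below the solid line.

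Between the IP libraries, more windows of the translation factor genes were lower in lactate than higher, with a share of lower windows that depended on how overlapping windows were counted. Of the 214 windows, 53 (24.8%) were over 2-fold lower in lactate and 7 (3.27%) were over 2-fold higher. Over all 37925 merged peaks of that depth, 18.6% were lower and 7.65% higher, and over those of protein-coding genes 18.3% and 7.3%. With the library sums as the scale, 33 windows (15.4%) were lower and 19 (8.88%) higher, beside 8.77% and 17% of all merged peaks and 8.57% and 16.4% of the protein-coding ones. The median log2 ratio was -0.37 (-0.51 to -0.26) for the translation factor windows and -0.20 for all protein-coding windows. Windows that share reads are not independent, so this interval and those of the other medians are too narrow. With the library sums the medians were -0.19 and 0.12. Counted by gene, 23 of the 51 genes had a lower window and 4 had a higher one, beside 36.9% and 16% of the protein-coding genes with a window of that depth. At least 1 called window in either direction was found in 24 of the genes, beside 44.9%. With the library sums 16 genes had a lower window, 7 a higher one and 20 either, beside 21.1%, 29.2% and 42.1%.

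With overlapping windows left out or merged into runs, the share of lower windows was near the background. Among the 54 windows that shared no reads with a neighbour, 9 were lower and 2 higher, beside 20.2% and 7.36% of all merged peaks of that kind. With the most-read window kept from each run of overlapping windows, a choice made after seeing the data, 26 of 124 were lower and 4 higher, beside 18.4% and 7.56%. The genes EIF1, EIF2D, EIF4A3 and EIF4G2 gave only windows that overlap a neighbour. A minimum of 50 reads left 20 lower and 0 higher of 124, beside 11.1% and 3.71%. A minimum of 10 reads gave 76 and 17 of 287, beside 24.9% and 11.3%, and no minimum 141 and 36 of 419, beside 38.6% and 13.9%. A fold over 4 was reached by 16 lower windows and 0 higher ones, beside 4.55% and 1.12%. Scaled by the sums over all windows, MT-RNR2 and MALAT1 included, 118 were lower and 5 higher, beside 37.9% and 3.94%.

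By region, the higher windows lay in introns. No exon window of 105 was over 2-fold higher and 30 were lower, where 2.12% of all protein-coding exon windows were higher and 22.7% lower. Of 44 windows in the 3' UTR, 12 were lower and none was higher, beside 15.5% and 2.28%. Of 63 intron windows, 10 were lower and 7 higher, beside 17.3% and 13%. Both windows in the 5' UTR were in ETF1, and 1 of them was lower and 0 higher, beside 29.8% and 4.66%. In exons and UTRs together 43 of 151 windows were lower and 0 higher, beside 19.3% and 2.27%. The medians were -0.41 in exons (-0.39 for all protein-coding genes), -0.42 in the 3' UTR (-0.22) and -0.19 in introns (-0.03). Scaled by the library sums they were -0.25 (-0.14), -0.38 (-0.02) and 0.23 (0.45), so the intron median changed sign. All 7 higher windows were intronic and had at most 31 reads, with 4 in EIF4G3 and 1 each in EIF3H, EIF4B and ETF1. With the library sums, exons had 21 lower and 3 higher windows, beside 11.6% and 6.81%, and the 3' UTR had 7 and 1, beside 7.03% and 6.63%. Introns then had 5 lower and 15 higher, beside 7.66% and 27.3%, and the 5' UTR none in either direction, beside 14.6% and 10.7%.

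By the normalized densities, lower windows were found at every depth. Between 20 and 50 reads 36.7% of 90 windows were lower, beside 24.6% of all protein-coding windows of that depth. From 50 to 200 reads 21.0% of 62 were lower, beside 14.3%. From 200 to 1000 reads 5 of 42 were lower (11.9%), beside 3.61%, and these were in EIF4A3, EIF3A and EIF3F. Of the 20 windows with 1000 reads or more, 2 were lower, both in EIF1, beside 7 of the 641 protein-coding windows of that depth (1.09%). Higher windows made up 7.78% between 20 and 50 reads, beside 10.6%, and 0 at each greater depth, beside 4.38%, 0.857% and 2.18%. With the library sums the median between 20 and 50 reads went from -0.66 to -0.06 (protein-coding -0.26 to 0.31). At 1000 reads or more it went from -0.06 to -0.45 (0.19 to -0.19), so the order by depth depended on the scale.

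**Figure D3:**
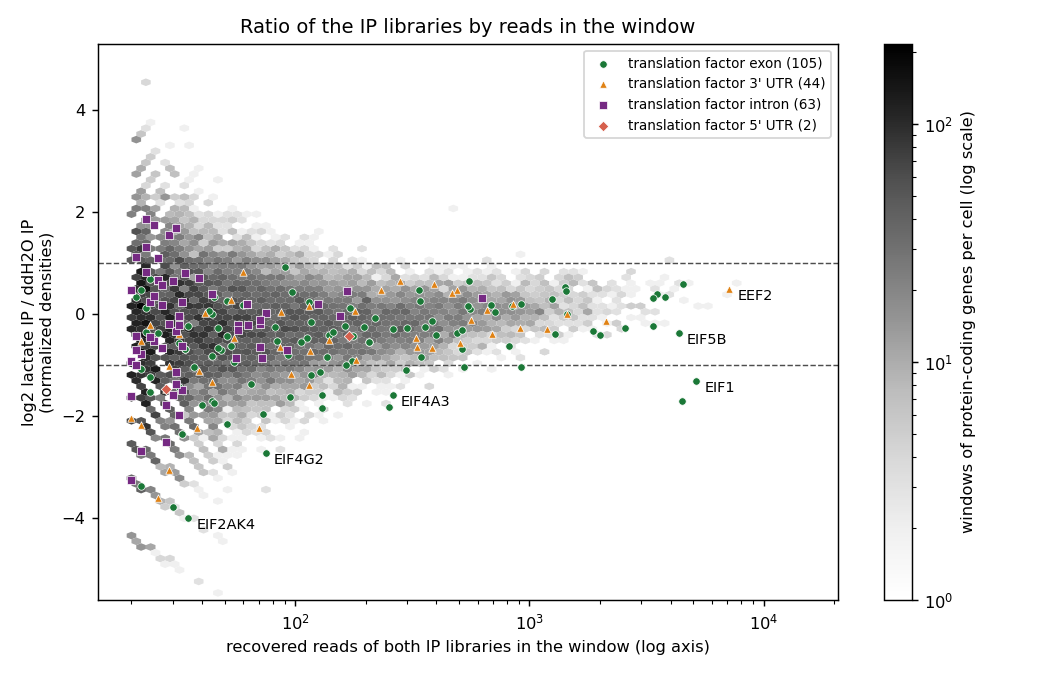
Log2 ratio of normalized density, lactate IP over ddH2O IP (y), against the reads of both libraries in the window (x, log axis), for windows of at least 20 reads. Grey cells count protein-coding windows, coloured points are the 214 translation factor windows by region, and dashed lines mark a 2-fold difference; the points of EIF1, at 4499 and 5154 reads, lie below the lower line.

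The genes are described below in the order of their role. Ratios of single windows compare IP with IP, and the enrichment over input of the same window can go the other way. Translation factor genes outside the rule for named genes (EIF1B, EIF6, EIF2B3, EIF2S1, EIF3B, EIF3D, EIF3H, EIF4E and EIF4E2) were chosen after their values were seen. MTIF2, PPP1R15B, PAIP2 and ATF4, named among the other genes of translation, were also outside the rule. Counts by group are read beside the shares over all merged peaks, 18.6% lower and 7.65% higher by the normalized densities and 8.77% and 17% by the library sums.

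**Figure D4:**
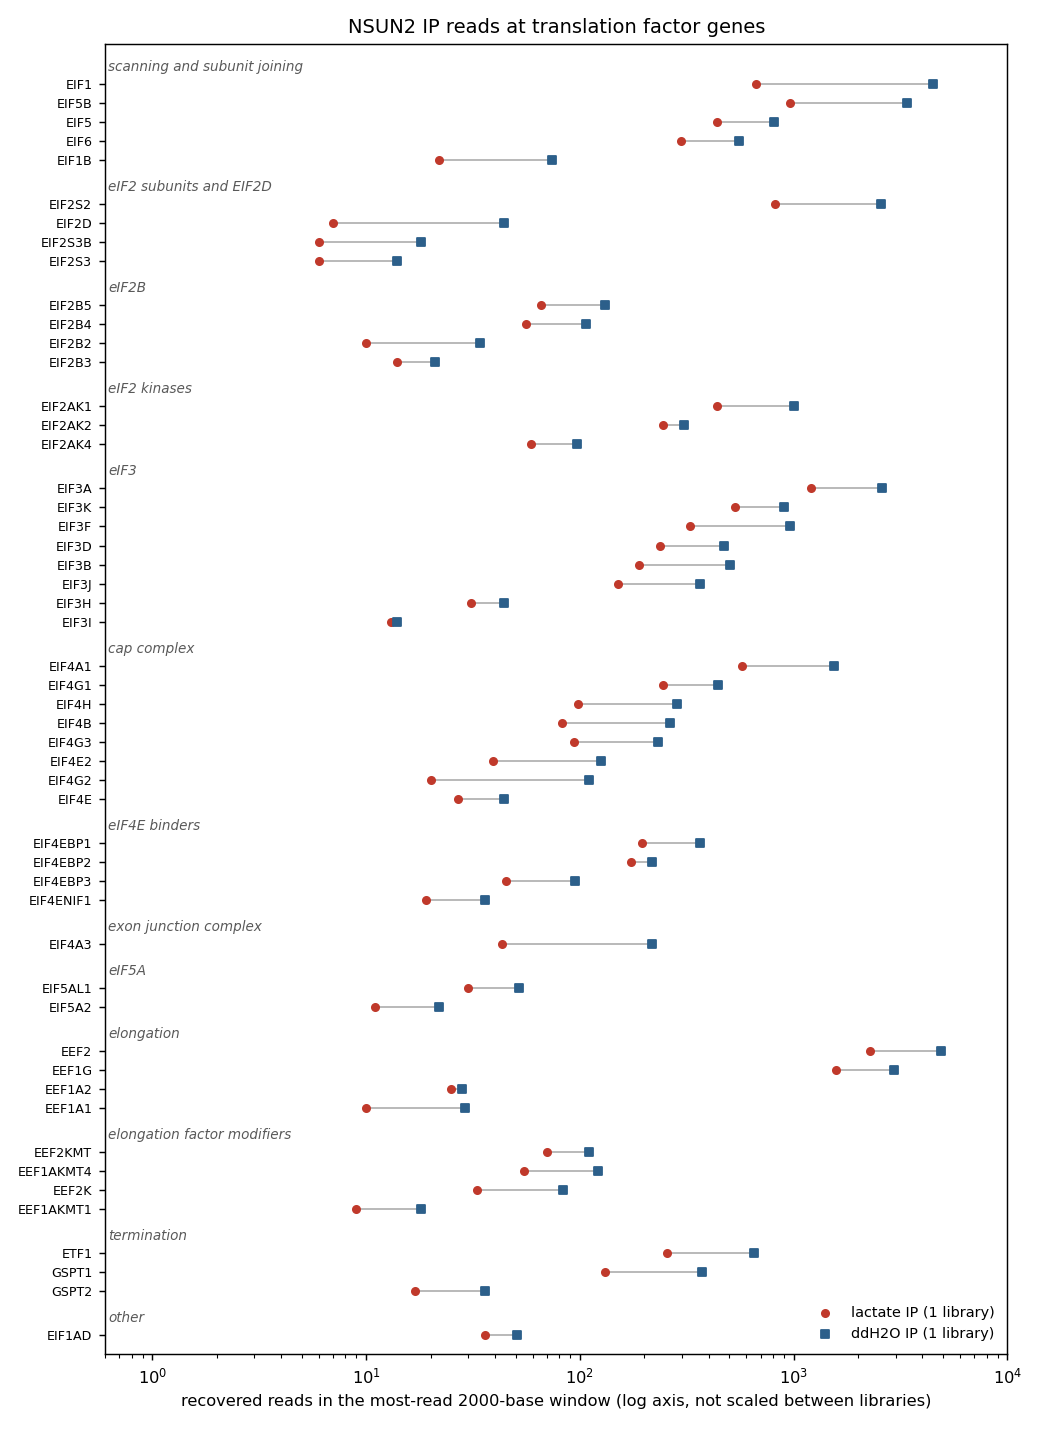
Recovered reads of the lactate IP (red circles) and the ddH2O IP (blue squares) in the most-read 2000-base window of each of the 51 compared genes, on a log axis and grouped by role. Reads are not scaled between the libraries; the widest gaps include EIF1, EIF2D, EIF4G2 and EIF4A3.

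Among the factors of scanning and subunit joining, the windows over 2-fold lower were those of EIF1, which guards start codon choice, and of its paralog EIF1B. The EIF1 exon window at chr17:41690685-41691060 held 666 reads of the lactate IP and 4488 of the ddH2O IP, a log2 ratio of -1.31 (-1.43 to -1.19). The overlapping window at chr17:41689885-41690343 held 472 and 4027 reads, a ratio of -1.70. Scaled by the library sums the ratios were -1.89 and -2.23. EIF1 had 2 called peaks in the ddH2O list, with enrichments of 1.95 and 4.31, and none in the lactate list. EIF1B was lower in all 3 windows, with 22 and 74 reads in the most-read one and ratios from -1.74 to -1.17. Scaled by the sums they ran from -1.22 to -0.84, and 1 was lower.

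EIF5, the GTPase-activating protein of eIF2, held 438 and 810 reads in its exon window at chr14:103336566-103337323, a ratio of 0.30 that became -0.02 with the library sums. EIF5B, the GTPase of subunit joining, held 961 and 3397 reads at chr2:99361123-99361993, a ratio of -0.37 (-0.47 to -0.27) and of -0.96 with the library sums. Its 9 exon windows ranged from -0.68 to 0.17 and none was over 2-fold lower. EIF6, which keeps the large subunit from joining early, held 298 and 555 reads and had ratios of 0.17 and 0.20 in its windows, which were -0.05 and -0.03 by the library sums. The group had 5 lower windows of 20 and none higher, near the 18.6% of all merged peaks, and 3 lower by the library sums.

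The eIF2 group, with the GTPase that brings the initiator tRNA and the related factor EIF2D, had 7 lower windows of 11 and none higher, beside 18.6% lower of all merged peaks. By the library sums 4 were lower, all in EIF2D, beside 8.77%. EIF2D, which can deliver tRNA without GTP and acts in ribosome recycling, was lower in each of its 4 windows under both scalings. These windows held 7 and 44, 7 and 33, 3 and 17, and 3 and 19 reads of the lactate and ddH2O IP. The first of them had a ratio of -2.15 (-3.70 to -1.15), and its neighbours had -1.78, -2.02 and -2.16. EIF2S2, the beta subunit of eIF2, held 821 and 2551 reads at chr20:34105262-34105525, a ratio of -0.24, or -0.77 with the library sums. Exon windows of EIF2S2 with 26 and 91 and with 29 and 99 reads had ratios of -1.19 and -1.14, and of -0.91 and -0.87 by the library sums. A processed pseudogene of EIF2S2 on chromosome 2 held 679 and 1609 reads, so reads may have been divided between the copies. EIF2S3B, a retrogene of the gamma subunit, held 6 and 18 reads, a ratio of -1.22 that was -0.58 by the library sums, and the alpha subunit gene EIF2S1 held 2 reads in all.

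In eIF2B, the exchange factor of eIF2, 6 of 10 windows were lower and none higher, beside 18.6% lower of all merged peaks. There were 3 lower by the library sums, beside 8.77%. EIF2B4, the delta subunit, had overlapping windows near the start of the gene with the same counts of 4 and 29 reads and a ratio of -2.35 (-4.59 to -1.11). Toward its end the window with 56 and 107 reads had -0.23, within 2-fold. EIF2B3, the gamma subunit, had 28 merged peaks of which 4 reached 20 reads, and 3 of these were lower with at most 28 reads. By the library sums 1 was lower. EIF2B2, the beta subunit, held 10 and 34 reads, a ratio of -1.32, or -0.81 by the library sums. EIF2B5, the catalytic epsilon subunit, held 66 and 131 reads and a ratio of -0.25.

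The eIF2 kinases had 6 lower windows of 26, in EIF2AK2 and EIF2AK4, and none higher, near the 18.6% of all merged peaks. There were 4 lower by the library sums, beside 8.77%. EIF2AK2 (PKR, the kinase activated by double-stranded RNA) varied along the gene. Its window in the 3' UTR held 132 and 149 reads, a ratio of 0.66 (0.31 to 1.00), and the exon window beside it held 244 and 307 reads, also a ratio of 0.66 (0.41 to 0.91). Their enrichments over input were nonetheless lower in lactate, 2.76 beside 2.98 in ddH2O at the 3' UTR and 2.50 beside 5.01 at the exon. Nearer the start, an exon window with 1 and 21 reads had -3.37 (-9.67 to -1.67) and an intron window with 2 and 20 reads had -2.68. EIF2AK4 (GCN2, the sensor of amino acid starvation) had the lowest ratio of all compared windows, -3.99 (-10.29 to -2.37), in an exon window with 1 and 34 reads. Its window with the most reads, an intron with 59 and 97, had -0.02. EIF2AK1 (HRI, the heme-regulated kinase) held 438 and 1004 reads in its 3' UTR, a ratio of 0.01 that was -0.33 by the library sums, and its other windows lay between -0.94 and -0.16.

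The subunits of eIF3, the scaffold on the small ribosomal subunit, had 4 lower windows and 1 higher of 39 under both scalings, with a median of -0.14, or -0.17 by the library sums. EIF3A, the largest subunit, held 1209 and 2597 reads at chr10:119050355-119050852, a ratio of 0.35 (0.25 to 0.44) that became -0.24 with the library sums. All 10 of its windows were exonic. The window 23.9 kb from the start of the 47.1 kb gene held 175 and 748 reads, a ratio of -1.03 (-1.28 to -0.79). The window at 21.6 kb held 107 and 420 reads, a ratio of -1.03 (-1.36 to -0.73), while those from 29.6 to 30.8 kb had 0.32 to 0.40. The normalized intervals of these windows did not overlap. Scaled by the library sums the windows at 23.9 and 21.6 kb had -1.23 and -1.10 and those from 29.6 to 30.8 kb had -0.24 to -0.16, a smaller difference in the same order.

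EIF3F, a subunit of eIF3 and a TOP gene, held 329 and 962 reads, a ratio of -0.38, and 63 and 235 reads in an overlapping exon window with -1.08. EIF3K, a small accessory subunit, held 533 and 898 reads, a ratio of 0.47 (0.31 to 0.62), or 0.11 with the library sums. EIF3D, which can bind the cap itself, held 237 and 473 reads, a ratio of 0.05 (-0.13 by the library sums), and EIF3B, a core subunit, held 188 and 503 reads with -0.39. EIF3H had intron windows only, from -3.25 (1 and 19 reads) to 1.74 (19 and 6 reads).

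The cap complex had 18 lower and 5 higher windows of 60, beside 18.6% and 7.65% of all merged peaks. With the other scaling it had 11 lower and 12 higher, beside 8.77% and 17%, so which count was the larger depended on the scale. EIF4G2 (DAP5, an eIF4G relative that does not bind eIF4E) was lower in all 5 compared windows under both scalings. They held 11 and 62, 17 and 78, 20 and 110, 23 and 107, and 7 and 68 reads of the lactate and ddH2O IP. The ratios ran from -2.71 (-4.25 to -1.76) at chr11:10807081-10807357 to -1.59 (-2.35 to -0.97) at chr11:10806641-10806887. The windows lie from 1.7 to 4.8 kb from the gene's start and overlap, so they are not independent measurements. EIF4G1, the main scaffold, held 244 and 441 reads, a ratio of 0.19 (-0.05 to 0.41), and 1 of its 9 windows was lower, with 14 and 51 reads and a ratio of -1.36 that was -0.93 by the library sums.

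EIF4G3, the third scaffold paralog, carried 78 merged peaks, of which 61 were intronic. Of its 6 compared windows in exons and the 3' UTR 5 were lower, among them an exon with 1 and 29 reads at -3.78 (-10.08 to -2.14) and the window at 312.2 kb that carries the 3' UTR label, with 9 and 61 reads, at -2.22. Of its 22 compared intron windows 4 were lower and 4 higher, with a range from -1.97 to 1.87. By the library sums 1 was lower and 8 higher, beside 7.66% and 27.3% of protein-coding intron windows, and 4 of the 6 in exons and the 3' UTR were lower. The 3 highest overlap at about 155 kb from the gene's start and held 18 and 5, 23 and 8, and 21 and 8 reads. Some windows with the 3' UTR label lay far inside EIF4G3, EIF4G1 and EIF4B, and the reason for the label was not tested.

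EIF4A1, the helicase of the complex, held 575 and 1541 reads in its 3' UTR, a ratio of -0.13 (-0.27 to 0.01), or -0.56 with the library sums. EIF4B, its cofactor and a TOP gene, held 82 and 263 reads in its last compared exon, a ratio of -0.83, and 34 and 26 reads in a window upstream, a ratio of 0.84 (0.07 to 1.64). By the library sums these were -0.81 and 1.24, and EIF4B had 3 higher windows where the normalized densities gave 1. The exon peak of EIF4B in ddH2O carried the name of the antisense gene TNS2-AS1 in the deposited annotation, and reads of the pair may be mixed. EIF4H, another cofactor of the helicase, held 98 and 286 reads, a ratio of -0.66. EIF4E, the cap-binding protein, had intron windows only, with 27 and 44 reads in the most-read one and ratios from -1.13 to -0.19. EIF4E2, its relative linked to repression of translation, held 23 and 91 reads in its 3' UTR, a ratio of -1.37 (-2.15 to -0.75), and 39 and 126 reads in an exon just past 2-fold lower. Scaled by the sums the exon was within 2-fold (-0.80) and another exon, with 12 and 10 reads, was higher (1.10).

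EIF4A3, a relative of EIF4A1 that works in the exon junction complex on spliced mRNA, was lower in both of its windows under both scalings. They held 43 and 218 reads at chr17:80135895-80136239, a ratio of -1.57 (-2.11 to -1.12), and 36 and 215 reads in the overlapping neighbour, a ratio of -1.82 (-2.41 to -1.34). EIF4A1 and EIF4A3 thus differed in ratio by more than counting error. The eIF4E-binding proteins had no window over 2-fold in either direction among 7, and 1 higher by the library sums, an intron of EIF4EBP2 with 22 and 17 reads (0.71, and 1.22 by the sums). EIF4EBP1 held 196 and 363 reads (ratio 0.10, with -0.02 by the library sums), EIF4EBP2 174 and 218 (0.59, with 0.54 by the library sums) and EIF4EBP3 45 and 95 (-0.41). The lactate peak at EIF4EBP3 carried the name of the readthrough gene ANKHD1-EIF4EBP3.

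The elongation factors had 2 lower windows of 7 and 0 higher, both lower ones in EEF1A1, and by the library sums 0 lower and 1 higher. EEF2, which moves the ribosome along the mRNA, held the most reads of any translation factor window, 2265 of the lactate IP and 4867 of the ddH2O IP at chr19:3975951-3976316 in its 3' UTR. The ratio was 0.50 (0.42 to 0.57), or -0.24 with the library sums, so the direction of this window depended on the scale. Its exon windows held 46 and 51 and 51 and 39 reads, with ratios of 0.43 and 0.94, or 0.72 and 1.24 by the library sums, so only the 3' UTR window changed sign among the 3 compared. EEF1G, a subunit of the exchange factor of eEF1A, held 1576 and 2960 reads at chr11:62559588-62560083, a ratio of 0.59 (0.50 to 0.68), or -0.05 with the library sums. EEF1A1, which delivers aminoacyl-tRNA, held 10 and 29 reads and 6 and 22 reads in the windows that the deposited annotation gave to its 3' UTR, at -1.11 and -1.47, or -0.58 and -0.85 by the library sums. These windows lie 29.2 and 30.0 kb from the RefSeq start of a gene that spans 5.28 kb, so they are outside the RefSeq gene. It has many processed pseudogenes, and EEF1A1P5 held 77 and 143 reads, so values for EEF1A1 are uncertain. EEF1A2, its paralog of muscle and neurons, held 25 and 28 reads, a ratio of 0.28.

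The modifiers of elongation factors had no window over 2-fold among 6. EEF2K, the kinase that inhibits eEF2, held 33 and 83 reads (ratio -0.71), EEF2KMT, a lysine methyltransferase of eEF2, 70 and 110 (0.07) and EEF1AKMT4, a methyltransferase of eEF1A, 55 and 122 (-0.43). Of the eIF5A relatives, EIF5A2 held 11 and 22 reads and EIF5AL1, a copy near-identical to EIF5A, 30 and 52, with ratios of -0.63 and -0.25. EIF1AD, a protein with an eIF1A-like domain, held 36 and 51 reads in its 3' UTR (0.06) and 8 and 36 in an exon (-1.71).

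In the termination group 2 windows of 22 were lower and 1 higher, and by the library sums 1 was lower and 4 higher. ETF1, which reads the stop codon, held 256 and 655 reads in its 3' UTR, a ratio of -0.26 (-0.48 to -0.05), and its exon windows had -0.26 and -0.41. Its 6 compared intron windows ranged from -0.70 to 1.11, the highest with 17 and 9 reads, and 4 of them were over 2-fold higher with the library sums. GSPT1, the GTPase partner of ETF1, held 131 and 373 reads in a 3' UTR window (-0.56) and 104 and 129 in another (0.48), and none of its 8 windows was over 2-fold either way. GSPT2, its retrogene paralog, held 17 and 36 reads (-0.62) and 5 and 33 (-2.23).

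The TOP genes were set beside the other translation factor genes. The 7 TOP genes with a compared window were EEF1A1, EEF1A2, EEF1G, EEF2, EIF3F, EIF3H and EIF4B. In their 27 windows 4 were lower and 2 higher, with a median of 0.16 (-0.51 to 0.43). In the 187 windows of the other 44 genes 49 were lower and 5 higher, with a median of -0.41 (-0.54 to -0.26). Over all merged peaks 18.6% were lower and 7.65% higher. By the library sums the TOP windows had 2 lower and 5 higher, the other windows 31 and 14, beside 8.77% and 17%, and the medians were 0.28 and -0.23. EIF3H gave 9 of the 27 windows, all intronic, and EEF1A1 gave 2 outside its RefSeq gene.

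Other genes of translation, 30 in a list that holds poly(A)-binding proteins, mTOR and MAP kinase targets and the mitochondrial factors, were read for comparison. Of these 29 had a peak and 26 had a compared window. Of their 61 windows 13 were lower and 1 was higher, beside 18.6% and 7.65% of all merged peaks, with a median of -0.19. By the library sums 6 were lower and 4 higher, beside 8.77% and 17%, with a median of 0.067. The lower windows were in 8 genes, among them MTIF2 (mitochondrial initiation factor 2), with 24 and 94 reads and a ratio of -1.35, and PPP1R15B, a regulator of the phosphatase of eIF2, with 3 and 49 reads in its 3' UTR and -3.37. The higher one was an intron of PAIP2, a binder of poly(A)-binding protein, with 25 and 14 reads and 1.15. ATF4, the transcription factor whose mRNA is translated when eIF2 is phosphorylated, held 3024 and 6941 reads, a ratio of 0.48, or -0.34 with the library sums.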

How the data were processed

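NSUN2 RIP-seq was measured in PANC-1 cells with 1 IP and 1 input library per condition. Per the labels, the processing tools included fastp 0.20.1, HISAT2 2.1.0, MACS2 2.2.7.1, bedtools 2.29.2 and HOMER 4.11.1, on GRCh38 (hg38). The authors called peaks per library against input and deposited each peak's fold enrichment (a ratio), p-value, q-value, −log10 values, gene and region. The authors then ran MAnorm on the merged peaks and deposited a normalized read density (signal) for each IP library. Their M value, A value and P-value columns hold their own comparison and were not used.

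The translation factor genes and the lists were chosen with earlier results of these data known. Genes were named by a rule: the 3 with the most reads in each role group, the 5 highest and 5 lowest windows with at least 50 reads, EIF1 and genes with close copies. Peaks and merged peaks were joined with bedtools 2.31.1. Reads per 2000-base window were computed back from the densities (reads plus 1, per kb, less a line of slope 0.17 in the mean log2 density), and 99.998% of windows came out whole within 0.1 read. The step was checked on simulated windows. A window over 2-fold with at least 20 reads was counted as higher or lower. Shares have Wilson intervals, medians order-statistic intervals and ratios exact conditional (Clopper-Pearson) intervals. The depth of the inputs is unknown. Computation used scipy 1.17.1, pandas 2.3.3 and numpy 2.4.6 under Python 3.11.15, and plots matplotlib 3.10.9.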

Additional observations from a re-analysis of the deposited data

How the results depend on the processing

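The comparison rests on 1 IP library per condition, so leaving out a library was not possible. No paired analysis was possible because a group holds 1 library and nothing was tested between groups. Against 53 lower and 7 higher windows, scaling by library sums without MT-RNR2 and MALAT1 gave 33 and 19, and the sums over all windows 118 lower. A minimum of 50 reads gave 20 lower and 0 higher, no minimum 141 and 36, and a minimum of 10 reads 17 higher. A fold over 4 left 16 and 0, windows that share no reads 9 and 2 (of 54), and exon and UTR windows 0 higher. Keeping the most-read window of each overlapping run, an alternative chosen after seeing the data, left 26 and 4 of 124. By gene, against 23 lower and 4 higher, a minimum of 50 reads gave 11 and 0, the most-read window of each gene 9 and 0, and the library sums 7 higher. At a q-value below 0.05 the exon share was 48.0% of lactate and 51.4% of ddH2O peaks and the intron share 28.4% and 27.7%. At a fold enrichment of at least 4 the ddH2O shares were 51.6% and 29.0%, and by bases covered the ddH2O intron share was 35.9%. At that enrichment 24 genes had a lactate peak and 39 a ddH2O peak. The median enrichment was 4.70 and 4.25 at a q-value below 0.05, and 3.96 and 4.91 for the highest peak of each gene. With the library sums the median log2 ratio was -0.25 in exons and 0.23 in introns, and -0.23 for genes outside the TOP list. Of the single genes, 12 moved by more than their counting interval with the library sums and 28 did not. Under that scaling 33 of the 53 lower windows were still lower and no called window turned to the opposite call. EEF1A1, EIF2B2, EIF2S2, EIF2S3B, EIF4E, EIF4G1 and ETF1 then had no lower window, with -0.58, -0.81 and -0.58 in the most-read windows of EEF1A1, EIF2B2 and EIF2S3B. The cause of these changes was not tested beyond the smaller number of windows that a minimum or fold leaves.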

Other observations

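Noncoding genes named after translation factors were left out of the comparison and are given as values. There were 22 such symbols with a merged peak, 19 pseudogenes and 3 long noncoding RNAs, with 28 merged peaks of which 10 held at least 20 reads. They had 9 lactate peaks and 25 ddH2O peaks. The most-read was EIF2S2P4, with 679 reads of the lactate IP and 1609 of the ddH2O IP and a log2 ratio of 0.08, beside 821 and 2551 reads at EIF2S2 itself. EIF4BP6, a processed pseudogene of EIF4B, held 119 and 272 reads (-0.29), and EIF3FP3, one of EIF3F, held 73 and 205 (-0.68). EIF4A1P10 held 27 and 127 reads, a ratio of -1.57, while EIF4A1 itself was at -0.13. The pseudogenes EIF1P3, EIF1P5 and EIF1P6 held 15, 7 and 9 reads in all, with 0 lactate reads at EIF1P5 and EIF1P6.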
